A study of Mus musculus with 7 samples.

Results

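The genes described here are 45 genes of the cell cycle and of DNA replication, out of 21938 protein-coding genes of the GENCODE M21 annotation on mouse build GRCm38 (mm10). They were taken as a list, not by any measured value. They fall into 13 genes of origin licensing, 8 of the replication fork, 3 of nucleotide supply, 11 of G1 and S phase control and 10 of G2 phase and mitosis. All 45 were found in the annotation, and none lies on chromosome 18.

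The cells were muscle stem cells (MuSCs), the resident stem cells of skeletal muscle, sorted from mice. ATAC-seq, in which a transposase cuts open chromatin, was run on 2 Control and 2 TRF2KO libraries from uninjured hind limb, labelled 0 h. In TRF2KO mice a floxed Terf2 gene, which encodes the telomere protein TRF2, is deleted by tamoxifen through a Cre driven from Pax7. Titles gave the groups, since the labels list all ATAC libraries as wild type. CUT&Tag brings the transposase to a protein through an antibody. It was run with an anti-TRF2 antibody (2 libraries) and with IgG (1 library) on MuSCs of tibialis anterior muscle, labelled as wild type and as collected 3 days after injury with the snake toxin notexin. The study's methods differ from these labels: they give control mice of genotype Pax7gCre/gCre;TdTomatofl/fl, another time, and gastrocnemius muscle as well. All mice were on a C57BL/6 background, and the age at collection and the number of animals per library are not given in the sources used here. The ATAC and CUT&Tag cells therefore differ in injury state, so that a TRF2 peak and an ATAC value of the same gene come from different cells. Nothing in the labels says that replicates came from separate mice, and the tests below then measure only the spread between libraries.

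Before a cell divides it copies its genome. In G1 the origin recognition complex, Cdc6 and Cdt1 load the Mcm helicase onto origins, cyclin D with Cdk4 or Cdk6 and cyclin E with Cdk2 release E2F factors, and E2F then switches on the genes of the replication fork. Genes of G2 and mitosis are switched on later, and their promoters often carry NF-Y boxes and a short element called CHR, through which the DREAM and MuvB complexes act. Uninjured MuSCs are mostly quiescent, that is, outside the cycle, and enter it after injury.

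The peak lists, as called with MACS, held 84102 to 100521 peaks in the ATAC libraries, 12290 and 15479 in TRF2 replicates 1 and 2, and 656 in IgG, on chromosomes 1 to 19, X and Y. Depth is given as the number of fragments at a peak's summit, since read totals were not used here. In each ATAC library it was solved from fold and p-value at 8 of the 45 genes. At the others it came from the fold and the library's background. As MACS settings are not given, the unit counted may be a fragment or a read end. The ATAC start-site peaks of the 45 genes held 53 to 1035 fragments at the summit, with library medians between 301 and 356. The TRF2 peaks at these genes were shallow, with medians of 11 and 12 fragments. All 10 of the MuSC marker genes, Pax7 among them, had an ATAC peak at a start in all 4 ATAC libraries, but so did 64.6% of all coding genes and some markers of other cells, so the peaks alone do not identify the cells. Ptprc, Itgam and Csf1r, leukocyte markers, had none in any ATAC library, whereas Cd68 had one in all 4. Of 4 endothelial markers 3, 4, 3 and 3 had a peak in Control replicates 1 and 2 and TRF2KO replicates 1 and 2, and the counts were 2, 2, 3 and 2 of 4 for fibro-adipogenic and 4, 3, 3 and 2 of 4 for myofibre markers.

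The promoters that the results below turn on are printed here as the 150 bases before the most upstream annotated start of each gene, 5′ to 3′ on the strand of the gene, from GRCm38. Capitals mark NF-Y boxes (CCAAT), E2F letters (TTTCCCGC, TTTCGCGC, TTTGCCGC or TTTGGCGC), CHR letters (TTTGAA) and G4 patterns, each on either strand. A G4 pattern has 4 stretches of 3 or more G, parted by loops of 1 to 7 bases of any kind, G included, and can fold into a G-quadruplex structure. Ccnb2 and Cdk6 had the largest differences in ATAC rank between genotypes, Cdk1 and Top2a show the letters typical of mitotic genes, and Mcm6 shows a licensing gene with E2F letters.
Ccnb2, chr9:70421548-70421697, minus strand: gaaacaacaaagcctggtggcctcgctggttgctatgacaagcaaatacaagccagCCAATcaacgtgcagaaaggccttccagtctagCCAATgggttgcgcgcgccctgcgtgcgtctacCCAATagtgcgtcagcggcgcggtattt
Cdk6, chr5:3341335-3341484, plus strand: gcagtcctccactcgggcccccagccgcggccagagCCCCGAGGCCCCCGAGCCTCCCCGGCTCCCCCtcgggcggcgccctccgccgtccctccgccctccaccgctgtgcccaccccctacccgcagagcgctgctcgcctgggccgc
Cdk1, chr10:69352939-69353088, minus strand: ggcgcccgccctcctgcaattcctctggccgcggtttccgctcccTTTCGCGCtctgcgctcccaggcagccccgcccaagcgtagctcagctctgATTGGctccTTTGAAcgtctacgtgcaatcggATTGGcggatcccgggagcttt
Top2a, chr11:99024190-99024339, minus strand: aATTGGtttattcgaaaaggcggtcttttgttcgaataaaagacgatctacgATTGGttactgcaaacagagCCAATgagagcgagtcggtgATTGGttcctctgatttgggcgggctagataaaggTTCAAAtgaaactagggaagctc
Mcm6, chr1:128359665-128359814, minus strand: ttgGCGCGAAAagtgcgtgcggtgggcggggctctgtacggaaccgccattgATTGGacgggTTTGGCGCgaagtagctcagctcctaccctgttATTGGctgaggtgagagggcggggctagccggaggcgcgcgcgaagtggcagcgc
Ccnb2, the cyclin B2 gene, carried 3 NF-Y boxes starting 94, 61 and 28 bases before the start. Cdk1, the mitotic kinase, carried E2F letters, CHR letters and 2 NF-Y boxes on the opposite strand. Top2a, topoisomerase II alpha, carried 4 NF-Y boxes and the CHR letters 23 bases before the start. Mcm6, a helicase subunit, carried E2F letters on both strands and 2 NF-Y boxes, while Cdk6 showed a G4 pattern only.

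All 45 genes had an ATAC peak within 1 kb of a transcript start in all 4 ATAC libraries, as did 64.6% of coding genes. At least 1 annotated start of each gene was thus open in uninjured MuSCs of both genotypes, cyclins and mitotic kinases included. Counting only peaks within 1 kb of the outermost annotated start of each gene, the number was again 45 of 45, against 60.6% of coding genes. This does not place a peak on that start at every gene. At Ccnd2 the summits of the peak counted lay 1096 to 1118 bp downstream of it. A peak reports open chromatin and not transcription. The call held with GoPeaks for 45 genes and with SEACR for 43, where Ccnb2 and Bub1, a spindle checkpoint kinase, were the exceptions.

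Signal was compared as a rank, the percentile of the start-site peak by fold among all MACS peaks of its own library, because folds of separate libraries share no scale. The median Control mean rank of the 45 genes was 94.0, against 89.4 for the 14180 coding genes open in all 4 libraries, and 33 of the 45 lay above the latter. E2f3, an activating E2F factor, ranked highest, at 99.9 and 99.9 in Control and 99.9 and 100 in TRF2KO on a peak of 4323 bp. Pcna, the sliding clamp of the fork, followed at 99.7 and 99.5 in Control and 99.3 and 99.1 in TRF2KO. At the other end stood Ccnd2, the cyclin D2 gene, at 63.1 and 69.0 in Control and 68.2 and 64.9 in TRF2KO, and Plk1, a mitotic kinase, at 65.4 and 72.1 in Control and 64.7 and 63.5 in TRF2KO. The Control values of Ccnd2 and Plk1 overlap, so their order is not beyond the spread between libraries, and the same holds for many neighbours higher in the order.

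By role, the median Control rank was 95.4 for origin licensing, 95.4 for the replication fork, 94.0 for nucleotide supply, 94.3 for G1 and S phase control and 89.4 for G2 phase and mitosis. The mitotic group spread widely, from Plk1 at a Control mean of 68.7 to Ccna2, cyclin A2, at 98.1. Among the licensing genes, Gmnn, which encodes the Cdt1 inhibitor geminin, was lowest at 86.8.

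**Figure D1:**
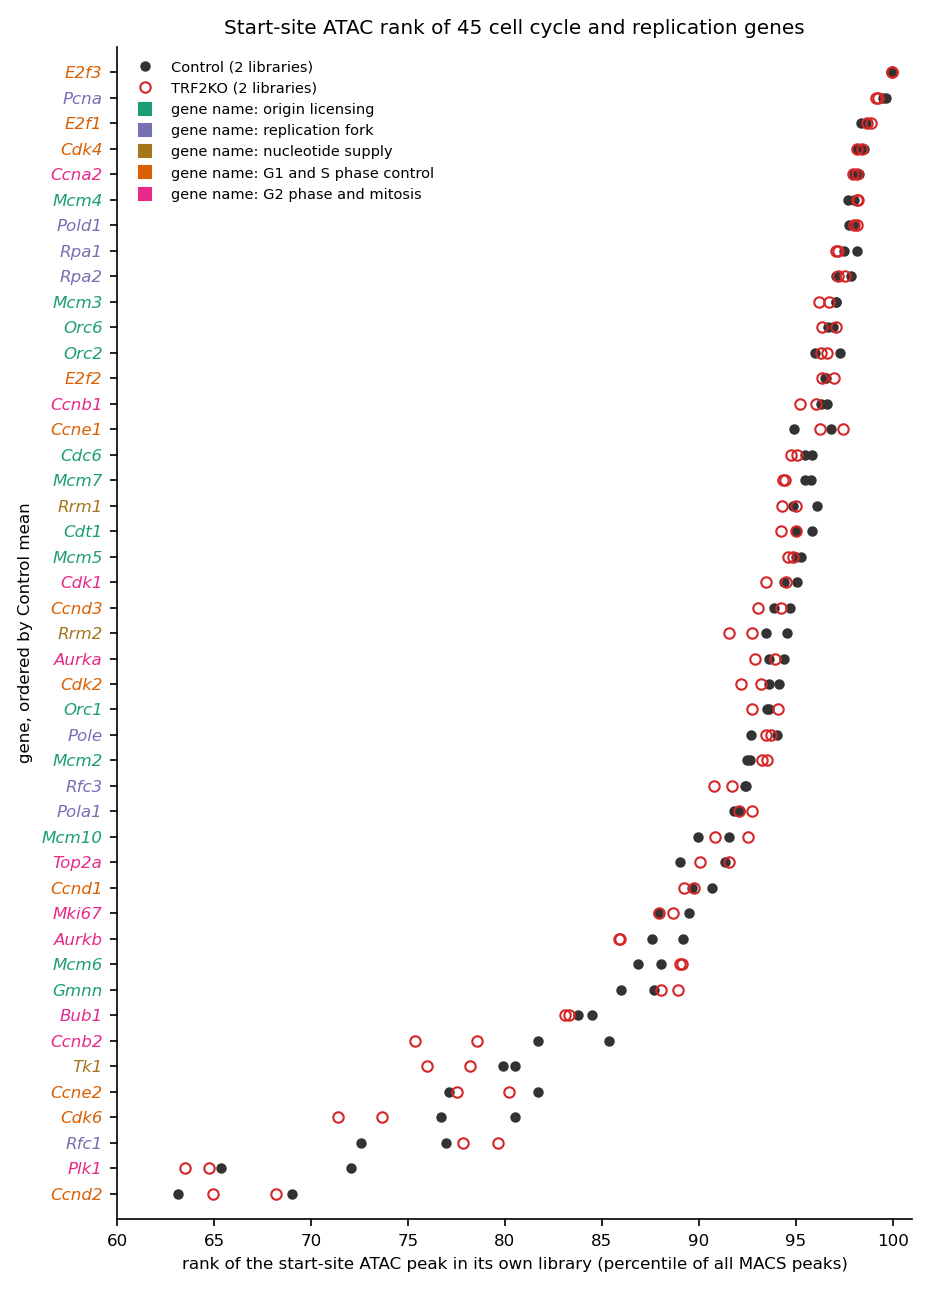
Each row is a gene and each point a library, with the start-site ATAC rank in percentiles on the x axis, filled for Control and open for TRF2KO. Most genes sit above rank 85, and the 7 genes whose libraries spread over 4 points or more are the 7 lowest, from Ccnb2 down to Ccnd2.

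The summits lay close to the starts. In Control replicate 1 the summit was upstream of the nearest annotated start at 32 genes and downstream at 13, with a median distance of 89 bp, and 39 were within 200 bp. Peak width ranged from 555 bp at Bub1 to 4323 bp at E2f3, with a median of 1370 bp. The start of another coding gene lay inside the peak at 9 genes: Prpf38a with Orc1, Vps35 with Orc6, Prkdc with Mcm4, Ap4m1 with Mcm7, Pxmp2 with Pole, Smyd4 with Rpa1, Afmid with Tk1, Pmel with Cdk2 and Cstf1 with Aurka. The signal there cannot be assigned to either gene. At Tk1, thymidine kinase 1, the summit lay 1009 bp downstream of the nearest annotated start of that gene. The ranked peak is not always at the outermost start of the gene. At 4 genes, Ccnd1, Ccnd2, Ccnd3 and E2f2, it missed that start and lay at another annotated one. For the D cyclins Ccnd1 and Ccnd2, its nearer edge was 1229 bp and 947 bp away, for E2f2 7.58 kb, and for Ccnd3, which has 19 annotated starts, 87.5 kb. A separate peak at the outermost start of Ccnd3, with its summit 78 to 119 bp downstream in each library, ranked 79.6 and 83.6 in Control and 85.3 and 87.7 in TRF2KO. The groups there did not overlap, in contrast to the ranked peak of Ccnd3. The like peak of E2f2 ranked 66.6 and 70.9 in Control and 64.3 and 71.1 in TRF2KO, with overlapping groups. At Ccnd1 the peaks were split differently in each library, with summits at -1771, 2209, 88 and 80 bp from the outermost start in Control replicates 1 and 2 and TRF2KO replicates 1 and 2 (upstream negative), and no comparison was made. These peaks were singled out after their values were seen.

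Of the 45 genes, 25 had a single region, present in all 4 libraries, whose nearest start was theirs, 55.6% against 47.9% of open coding genes, and 13.3% had 5 or more, against 14.2%. Ccnd3 and Ccnd1, cyclins D3 and D1, had 14 and 12 such regions, Ccne1, cyclin E1, and E2f2 had 8 each, against a median of 2 over open coding genes and 1 over the 45.

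The comparison of TRF2KO with Control asked whether loss of TRF2 changed how open these start sites were relative to other sites. No gene of the 45 was called in either direction. The libraries pool many cells, so fewer cells with an open site and less opening per cell cannot be told apart. limma on log2 folds, quantile normalized between the 4 libraries and with Benjamini-Hochberg adjustment over 14180 genes, called 0 of 45 lower and 0 of 45 higher. Over all genes it called 4 lower, which is 0.0282%, and 1 higher, which is 0.00705%. At an unadjusted p under 0.05 were 6 of the 45, 13.3%, against 13.1% of all genes. The log2 differences of the 45 ranged from -0.47 to 0.37 with a median standard error of 0.08, and the 95% intervals of all 45 excluded a change of 1 log2 unit in either direction. For 41 genes the interval lay within 0.5 log2 units of 0. These intervals bound change relative to other open genes only. Quantile normalization removes any shift common to all start sites, so such a shift could not be seen. The deleted gene itself is a measure of the scale: Terf2 ranked 90.1 and 91.5 in Control and 75.0 and 73.3 in TRF2KO, a log2 difference of -1.43 ± 0.07 (SE) with an adjusted p of 0.0304 by limma. The segment that Cre removes is not given in the sources used here, so what this peak checks about the deletion is not known. With any library left out, or with the replicate number in the fit, limma called no gene at all, Terf2 included.

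By rank, both TRF2KO values lay below both Control values at 17 of the 45 genes, 37.8%, against 29.6% of open coding genes, and above at 8, 17.8%, against 9.06%. The groups overlapped at the remaining 20 genes. These counts depend on the yardstick. When peaks were ranked only among start-site peaks of open genes, 9 of the 45 were lower, against 22.2% of open coding genes, and 12 higher, against 23.8%, and 9 of the 17 and 8 of the 8 kept their side. The median rank difference was -0.41 points over the 45 and -0.27 over all open genes on the first yardstick, and 0.04 and 0.12 on the second, so no common direction can be given. The 45 genes differed little: 33 differed by at most 1 point, 73.3%, against 54.8% of all open genes, but points are compressed near 100, where most of these genes rank. The marker genes of cell types were compared in the same way. Of the MuSC markers 6 of 10 were lower by rank and 0 higher, with a median difference of -1.53 points and the lowest value at Itga7, -7.21. On the second yardstick 5 were lower and 1 higher. Their summed folds, each on the scale of its own library, were 595 and 528 in Control and 540 and 540 in TRF2KO. Among markers of other cells, Cd68 ranked 46.4 and 53.2 in Control and 24.5 and 27.1 in TRF2KO, whereas Tie1, an endothelial receptor, ranked 3.71 and 8.88 in Control and 19.5 and 22.0 in TRF2KO. Ckm, the muscle creatine kinase of myofibres, ranked 72.0 and 72.3 in Control and 68.5 and 64.0 in TRF2KO. The summed folds were 15.4 and 16.0 in Control and 18.3 and 15.7 in TRF2KO for the 4 endothelial markers, 8.05 and 7.38 against 4.57 and 4.54 for the leukocyte markers, 52.5 and 47.0 against 56.9 and 48.3 for the fibro-adipogenic markers, and 50.2 and 39.6 against 40.7 and 27.9 for the myofibre markers. The leukocyte sum is Cd68 alone, and the endothelial, fibro-adipogenic and myofibre sums cover unequal numbers of peaks between libraries. Because folds of separate libraries share no scale, the sums of all the marker lists cannot be read as differences between genotypes. limma called 0 of the markers, with 2 of 10 MuSC markers and Tie1, Kdr and Cd68 at an unadjusted p under 0.05. The part of these marker values in the results on the 45 genes was not tested.

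An exact two-sided permutation test of 2 against 2 libraries cannot go below p = 0.333, which is the value for each gene whose groups did not overlap.

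Ccnb2, on chr9:70421327-70421985, showed the largest difference. Cyclin B2 activates Cdk1 at the entry into mitosis. Ranks of 81.7 and 85.4 in Control stood against 75.4 and 78.6 in TRF2KO, from 136, 169, 95 and 107 fragments at the summit. The groups did not overlap on either yardstick. The difference was -6.57 points, or -0.47 ± 0.12 log2 units (SE, n = 2 per group), with an adjusted p of 0.249 by limma.

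Cdk6, on chr5:3341140-3344794, came next. It is the kinase partner of D cyclins in G1. Ranks of 76.7 and 80.5 in Control stood against 73.7 and 71.4 in TRF2KO, from 104, 124, 87 and 74 fragments. The groups again did not overlap. The difference was -6.08 points, or -0.38 ± 0.08 log2 units (SE, n = 2 per group), with an adjusted p of 0.200 by limma. Cdk4, the other partner of D cyclins, stayed at 98.5 and 98.2 in Control and 98.2 and 98.4 in TRF2KO, a log2 difference of 0.03 ± 0.08. Of the 45 genes, only Ccnb2 and Cdk6 had groups that did not overlap and means 5 points or more apart, both lower. That is 4.44%, against 5.79% of open coding genes that were lower by this rule.

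Rfc1, the large subunit of the clamp loader, lay furthest in the other direction, at 72.6 and 77.0 in Control and 79.6 and 77.9 in TRF2KO, from 85, 102, 120 and 103 fragments. Its difference was 3.98 points, or 0.37 ± 0.07 log2 units (SE, n = 2 per group), with an adjusted p of 0.200 by limma. The other genes higher by rank were Gmnn, Mcm2, Mcm4, Mcm6, Pold1, E2f1 and E2f3, by 0.02 to 1.66 points. Among these, Mcm6 and Gmnn each differed by 0.23 log2 units, with adjusted p of 0.316 and 0.354 by limma.

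In origin licensing, 5 of 13 genes were lower and 4 higher by rank, and in the replication fork 3 of 8 were lower and 2 higher. Over all open coding genes, 29.6% were lower and 9.06% higher. The Mcm helicase subunits were on both sides, with Mcm3, Mcm5 and Mcm7 lower and Mcm2, Mcm4 and Mcm6 higher. In G2 phase and mitosis 5 of 10 were lower and 0 higher: Ccnb1, Ccnb2, Aurkb, Plk1 and Bub1. Of these only Bub1 moved to overlapping groups on the second yardstick. There Top2a, whose groups overlapped on the first, was higher, at 51.3 and 54.4 in Control and 58.7 and 54.6 in TRF2KO. A direction shared by the whole role thus depends on the yardstick. Aurkb, the kinase of the chromosomal passenger complex, ranked 87.6 and 89.2 in Control and 85.9 and 85.9 in TRF2KO, a log2 difference of -0.20 ± 0.07 with an adjusted p of 0.338 by limma. In nucleotide supply, Rrm2 and Tk1 were lower, and in G1 and S phase control Cdk2 and Cdk6 were lower and E2f1 and E2f3 higher. The limma fit called 0 genes in each role, with 2, 1, 0, 1 and 2 at an unadjusted p under 0.05 in the order of roles given at the start.

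**Figure D2:**
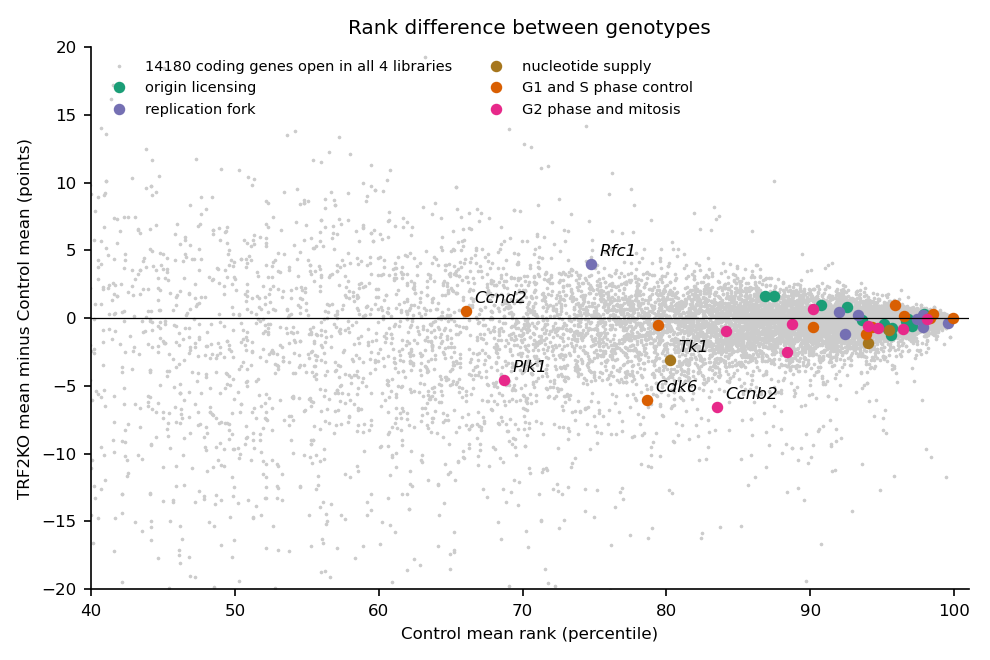
The difference of group mean ranks (TRF2KO minus Control, in percentile points) is plotted against the Control mean rank, with the 45 genes coloured by role over the open coding genes in grey, of which 685 lie outside the axes. The 45 genes stay between -6.57 and 3.98 points, and differences shrink towards rank 100 for all genes.

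Other genes of the same pathways were compared in 3 lists. All 94 were open in all 4 libraries. By rank 27 were lower, 28.7% against 29.6% of open coding genes, and 11 higher, 11.7% against 9.06%. On the second yardstick 22 of the 94 were lower and 29 higher, against 22.2% and 23.8% of open coding genes. The median difference was -0.18 points on the first and 0.39 on the second, against -0.27 and 0.12 over all open genes. limma called 0, with 10 at an unadjusted p under 0.05, 10.6% against 13.1% of all genes. Among 34 other replication genes, 9 were lower and 2 higher, 26.5% and 5.88%, and 9 and 11 on the second yardstick. Pola2, a subunit of DNA polymerase alpha, had the lowest difference, with ranks of 85.7 and 89.3 in Control and 82.9 and 79.0 in TRF2KO and a log2 difference of -0.56 ± 0.13 (adjusted p of 0.236 by limma), and Prim1, the primase, had the highest, 4.19 points with overlapping groups. Among 28 other control genes, 5 were lower and 6 higher, 17.9% and 21.4%, and 6 and 11 on the second yardstick, with differences from Mnat1 at -4.41 to Tfdp1 at 5.12 points, both with overlapping groups. Among 32 other mitosis genes, 13 were lower and 3 higher, 40.6% and 9.38%, and 7 and 7 on the second yardstick, with differences from Pttg1, securin, at -2.35 to Birc5, survivin, at 1.93 points.

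Regions found in a single genotype were few near the 45 genes. Of 122720 merged ATAC regions, 174 had a start of these genes as their nearest start. A peak in both Control libraries and in neither TRF2KO library marked 5 of the 174, 2.87%, against 4.48% of all regions, and the reverse marked 1, 0.575%, against 1.12%. The Control regions were 3 near Ccnd3, 1 near Ccne1 and 1 at Cdt1, and the TRF2KO region was near Pola1. The strongest near Ccnd3, at chr17:47527567-47527960 in an intron of Ccnd3, had folds of 5.75 and 4.86 in Control and was absent from the GoPeaks and SEACR lists of TRF2KO too. The other 2 near Ccnd3 overlapped exons annotated there, at chr17:47599634-47600043, where Ccnd3 and Bysl overlap, and at chr17:47600536-47602100 in Bysl, with folds of 2.53 and 3.42 and of 4.14 and 4.32. The region near Ccne1 was intergenic, at chr7:38130364-38130753, with folds of 4.83 and 4.32. The region at Cdt1, at chr8:122568860-122569281, overlapped an exon and had folds of 3.45 and 2.34. The TRF2KO region near Pola1 was intergenic, at chrX:93635040-93635315, with folds of 6.18 and 7.49. Apart from the first Ccnd3 region, each appeared in a GoPeaks or SEACR list of the other genotype, and none held a TRF2 peak. All ranked below the middle of their own lists, from percentile 0.261 at a Ccnd3 region to 48.2 at the Pola1 region. The counts moved with each library. Without Control replicate 1, Control replicate 2, TRF2KO replicate 1 or TRF2KO replicate 2 there were 22, 14, 11 and 9 Control regions. The TRF2KO regions then numbered 2, 2, 5 and 11. The shares over all merged regions moved as well. In the same order they were 19.4%, 12.2%, 8.64% and 7.36% for Control and 2.29%, 2.90%, 7.38% and 6.75% for TRF2KO.

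TRF2 CUT&Tag in the injured cells asked where TRF2 lies. A TRF2 peak within 1 kb of a start was found in both libraries at 27 of the 45 genes, 60%, against 25.1% of all coding genes and 38.7% of open ones. In replicate 1 there were 29 such genes and in replicate 2 there were 31, with 33 in either. IgG had a peak at none of the 45, but its list was short and reached 27 coding genes in all. The TRF2 summits lay between 407 bp upstream and 213 bp downstream of the nearest start.

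The share with TRF2 was higher at higher ATAC ranks, for all genes and for these. Split by Control rank into 5 classes of 2836 genes, from the lowest to the highest, 5.36%, 17.8%, 35.2%, 54.1% and 80.8% of open coding genes had a TRF2 peak in both libraries. For the 45 genes the counts were 0 of 2, 1 of 6, 4 of 8, 12 of 18 and 10 of 11. The genes lie mostly in the upper classes, and the part of ATAC rank in their TRF2 count was not tested. The 12 genes with no TRF2 peak in either library had a median Control rank of 83.8, and the 27 with a peak in both had 95.7.

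**Figure D3:**
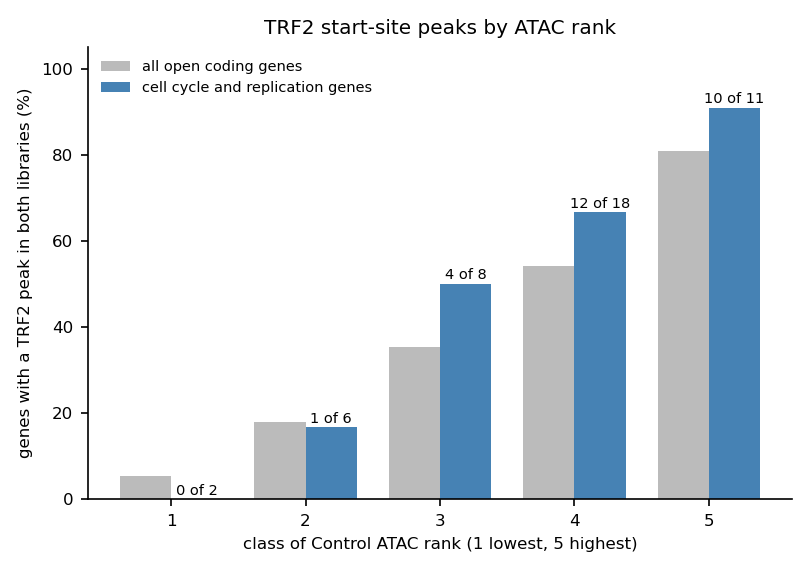
Bars give the percent of genes with a TRF2 start-site peak in both libraries, in 5 classes of equal size by Control ATAC rank, grey for all open coding genes and blue for the 45, with counts above. Both are higher in the last class than in the first, and the counts of the 45 run from 0 of 2 to 10 of 11.

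By role, TRF2 peaks in both libraries stood at 10 of 13 licensing genes, 6 of 8 fork genes, 1 of 3 nucleotide genes, 5 of 11 genes of G1 and S phase control and 5 of 10 genes of G2 phase and mitosis. The genes with the highest lower fold of the pair were Cdk4 at 10.8 and 9.54, Ccna2 at 8.83 and 8.65, Mcm4 at 9.29 and 8.19, Pcna at 9.06 and 7.88, Mcm6 at 7.41 and 7.48, Ccne2, cyclin E2, at 7.25 and 7.48, Pole, the leading-strand polymerase, at 7.03 and 8.86, and E2f3 at 6.63 and 10.5 in replicates 1 and 2. The Cdk4 peak, at chr10:127063251-127063646 in replicate 1, held 31 and 24 fragments. At Mcm4 and Pole the starts of Prkdc and Pxmp2 lie in the same ATAC peak. Orc6, an origin recognition subunit that shares its ATAC peak with Vps35, had the highest single value, 11.2 in replicate 1, and 6.53 in replicate 2. The median folds of the 27 genes, 6.23 and 7.45, were near those of all open genes with a TRF2 peak in both, 6.47 and 6.83.

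**Figure D4:**
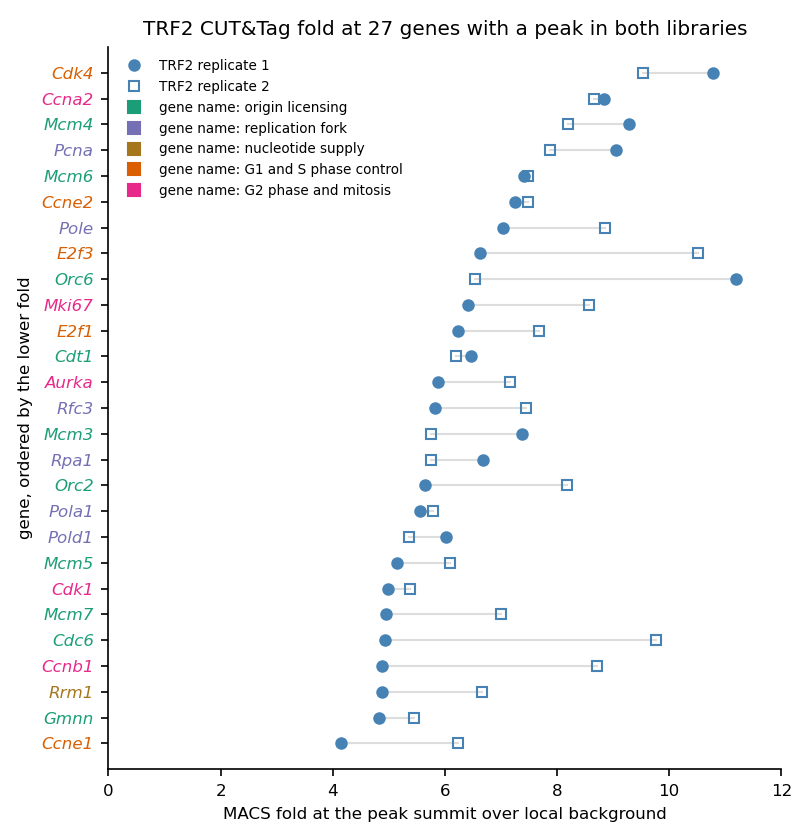
Each row is a gene with a TRF2 peak in both libraries, with the MACS fold of replicate 1 (filled) and replicate 2 (open) on the x axis. Folds run from 4.14 at Ccne1 to 11.2 at Orc6, and the replicates of Orc6, E2f3, Cdc6 and Ccnb1 lie furthest apart.

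Many of these peaks were close to the threshold. With a -log10 q of at least 5 in both libraries, 12 of the 27 remained, 26.7% of the 45 against 13.8% of all coding genes and 21.3% of open ones. They were Cdk4, Ccna2, Mcm4, Pcna, Mcm6, Ccne2, Pole, E2f3, Orc6, Mki67, E2f1 and Cdt1. Ccnb2 and Cdk6, with the largest rank differences between genotypes, and Rfc1, the furthest higher, had no TRF2 peak in either library. Of the 6 genes at an unadjusted p under 0.05 by limma, 13.3% against 13.1% of all genes, Mcm6 and Gmnn had a TRF2 peak in both libraries. The other 4, Ccnb2, Cdk6, Rfc1 and Aurkb, had it in neither, with Control mean ranks of 83.5, 78.6, 74.8 and 88.4. In the classes of Control rank that hold these genes, 17.8% and 35.2% of open coding genes had a TRF2 peak in both. A link between TRF2 peaks and rank differences was not tested.

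TRF2 is a protein of telomeres, and G4 patterns have been linked with its sites outside them. In 500 bp around the ATAC summit, 18 of the 45 genes held a G4 pattern, 40%, against 38.5% of open coding genes. Within the TRF2 peak of replicate 1, it was 12 of 27, 44.4%, against 40% of open coding genes with a TRF2 peak in both libraries. Both shares are near the background, but this depends on the setting. In 200 bp at the summit 14 of 45 held a pattern, against 19.2% of open coding genes. From 250 bases before to 50 after the gene start it was 18 of 45, against 27.2%. With loops of 1 to 12 bases it was 24 of 45, against 58.4%. No test was made of these shares. A pattern within the TRF2 peaks of both libraries and outside annotated exons stood at 6 genes. One pattern of each is shown, as the sequences where TRF2 peaks and G4 patterns coincide, with the runs of G in capitals, 5′ to 3′ on the strand given.
Cdk4, chr10:127063458-127063482, minus strand: GGGaGGGGtgtggtGGGGaaGGGGG
Ccnb1, chr13:100786643-100786663, plus strand: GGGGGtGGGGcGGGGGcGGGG
Mki67, chr7:135716390-135716417, minus strand: GGGGctggacGGGGcggcGGGtggcGGG
Cdt1, chr8:122567825-122567853, minus strand: GGGagcggccGGGGctggaGGGttGGGGG
Rfc3, chr5:151651011-151651029, minus strand: GGGGaaGGGaaGGGaaGGG
Pole, chr5:110286232-110286250, plus strand: GGGGcGGGGcGGGGcGGGG
The pattern at Cdk4 lies in the strongest TRF2 peak of the list by the lower fold. Mki67, the gene of the proliferation marker Ki-67, has 3 further patterns in both of its TRF2 peaks. Of these, 1 lies in an exon and another is an unbroken run of 17 G, whose loop bases are G as well. Rfc3, a clamp loader subunit, has 2 further patterns in both. Pole has 2 more in both, in exons of its neighbour Pxmp2, and Ccnb1, cyclin B1, has another in replicate 1.

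Other letters of the promoters were counted by role. From 250 bases before to 50 after the gene start, E2F letters stood in 8 of 13 licensing genes, 3 of 8 fork genes, 0 of 3 nucleotide genes, 4 of 11 genes of G1 and S phase control and 1 of 10 genes of G2 phase and mitosis (Cdk1), against 3.88% of open coding genes. CHR letters stood in 7 of 10 genes of G2 phase and mitosis (Ccnb2, Cdk1, Aurka, Aurkb, Plk1, Top2a and Mki67) and in 2 of the 35 others (Mcm2 and E2f3), against 12.3%. NF-Y boxes stood in 33 of 45, against 37.9%, and were spread over the roles, with 11 of 13 licensing genes, 6 of 8 fork genes, 2 of 3 nucleotide genes, 5 of 11 genes of G1 and S phase control and 9 of 10 genes of G2 phase and mitosis. In the 500 bp around the ATAC summit the counts were 19 of 45 for E2F, 15 for CHR and 37 for NF-Y, against 6.35%, 15.7% and 47%. A match is a run of letters and not a bound site. The GC content of these windows ran from 46% to 74.8% with a median of 59.8%, against 62.2% for open coding genes. No test was made of these shares. Among the 5 genes of G2 phase and mitosis that were lower by rank, Ccnb2, Aurkb and Plk1 held CHR letters. So did Cdk1, Aurka, Top2a and Mki67, whose groups overlapped on the first yardstick.

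**Figure D5:**
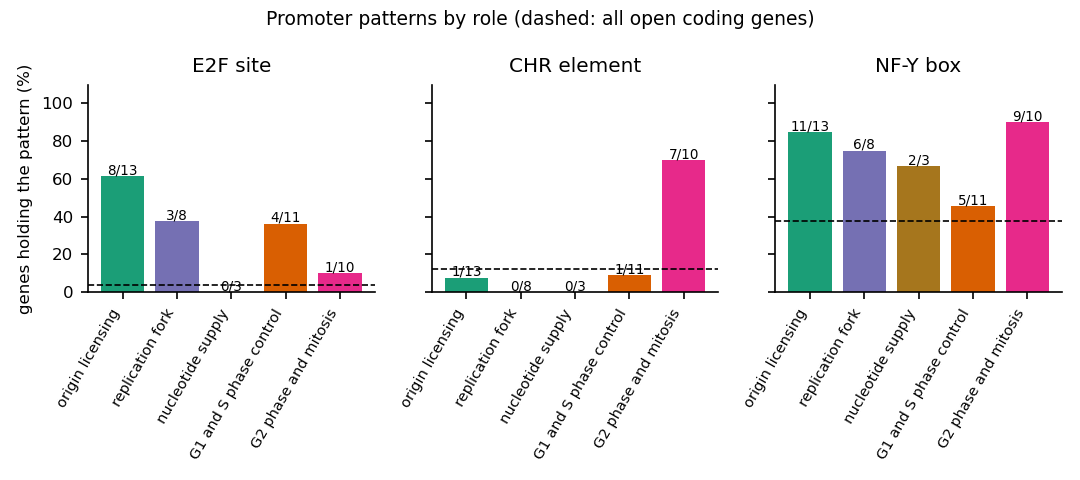
Bars give the percent of genes of each role that hold the pattern between 250 bases before and 50 after the gene start, with counts above and the share of all open coding genes dashed. E2F sites are most frequent in origin licensing (8 of 13) and CHR elements in G2 phase and mitosis (7 of 10).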

How the data were processed

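Peak lists of 7 libraries were used, called per library. Per the labels and the study's methods, reads were aligned to mm10 with Bowtie2 2.4.4 (CUT&Tag, after cutadapt 4.4) or Bowtie2 2.5.4 (ATAC), filtered with Picard 3.1.1 and SAMtools 1.10, and called with MACS3 3.0.0 (CUT&Tag) or MACS3 3.0.2 (ATAC), with SEACR 1.3 in stringent mode and with GoPeaks. The methods of the study name another Bowtie2 version. The sources used here do not give MACS settings, whether ATAC ends were shifted to the transposase cut, or whether IgG served as a control in calling. For each MACS peak the authors deposited a fold, a ratio of the summit pileup plus 1 to the local background plus 1, and a -log10 p and a -log10 q. The deposited MACS score, a rescaled -log10 q, was not used. The deposited SEACR signal was not compared, and GoPeaks regions carry positions only. The authors' consensus lists, made with DiffBind 3.10.1 and named by genotype, carry a DiffBind score of no stated scale, and only their positions were used.

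Start sites came from GENCODE M21, whose GRCm38 coordinates mm10 shares. A gene had a peak when a peak overlapped the window of 1 kb on either side of any transcript start. The strongest such peak by fold was ranked among all peaks of its list. ATAC background was constant within each library, so ranks by fold and by p coincide. Folds of genes open in all 4 ATAC libraries were compared as log2 values in limma 3.58.1 (R 4.3.3), quantile normalized, with no pseudocount, no block and Benjamini-Hochberg adjustment at 0.05. Tested on simulated data for Control against TRF2KO over 14180 genes, it recovered 145 of 200 log2 changes of 1, with 4 false calls. Summit fragments were solved from fold and p for a -log10 p under 200, and otherwise from the fold and the library's background. They cover counting error only. Patterns were searched in the RefSeq GRCm38.p6 sequence with Python 3.11.15. Merged ATAC regions share at least 1 bp.

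Values in every library are given for Terf2 and for genes whose groups did not overlap by at least 5 points. They are given too for the 8 genes with the highest lower TRF2 fold and for genes with a region of a single genotype. E2f3, Pcna, Ccnd2, Plk1, Rfc1, Cdk4, Aurkb, Orc6 and Top2a were added after their values were seen. They were the ends of an order, relatives of a named gene or, for Top2a, a gene whose pattern differed between yardsticks. The markers Itga7, Cd68, Tie1 and Ckm and the peaks at outermost starts were also added after their values were seen. The promoters of Cdk1, Top2a and Mcm6 were printed for the letters they hold. Other genes of the pathways are named where their rank difference was the most extreme of their list. The 45 genes, the lists and the tests were chosen with earlier results of these data known.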

Additional observations from a re-analysis of the deposited data

How the results depend on the processing

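Of 72 alternatives over the 10 counts and medians reported, 56 left the value within 1.5 times of the main count (or, for the median rank difference, within the spread between libraries) and 16 moved it. The count of genes with an ATAC peak in all 4 libraries, the limma counts and the G4 count did not move. The share of open coding genes with a G4 pattern did change with the setting, from 19.2% to 58.4%. Ranking among start-site peaks of open genes gave 9 genes lower in TRF2KO in place of 17. A -log10 q of at least 5 left 12 genes with TRF2 in both libraries in place of 27, and 13.8% of coding genes in place of 25.1%. When GoPeaks and SEACR lists of the other genotype were also asked, 1 Control and 0 TRF2KO regions near the 45 genes remained. They numbered 20 and 6 when any start of the 45 within 50 kb counted. The shares of all merged regions under these rules were not counted, so whether these numbers are many or few is not known. Without Control replicate 1, Control replicate 2, TRF2KO replicate 1 or TRF2KO replicate 2, the genes lower by rank numbered 28, 19, 24 and 19. Of all open genes 67.3%, 33.1%, 45.1% and 40.4% were then lower. In the same order, those higher numbered 10, 17, 12 and 11, against 11.3%, 41.9%, 16.6% and 21.5% of all open genes. The Control regions numbered 9 to 22 and the TRF2KO regions 2 to 11. Over all merged regions the Control share then ran from 7.36% to 19.4% and the TRF2KO share from 2.29% to 7.38%. A lone library in a group makes non-overlap easier by construction, and limma then assumes that it varies like the other group. The cause of the other moves was not tested.

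With the replicate number in the limma fit (replicate block), 0 of the 45 genes were called lower and 0 higher, as without it, and 0 of all genes in place of 4 and 1. Deviations of same-numbered Control and TRF2KO libraries from their group means had r = -0.05 across genes. With 2 libraries per group both pairs give the same value by construction. It does not show whether the numbers mark a shared batch or a pairing. Median centring in place of quantile normalization called 44 genes lower and 9 higher over all genes and 0 of the 45. Left-out libraries gave 0 calls over all genes in each of the 4 fits.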
